A study of Homo sapiens with 9 samples.

Results

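The 9 genes described here are transcripts that SMAD proteins are known to control. Their names were given as a list and matched to the gene symbols of the deposited table, with no threshold on expression. The list was chosen with earlier results of these data known. PMEPA1, SMAD7, SKIL, TGIF1, TGFBI and BAMBI formed the group of 6 SMAD2/3 targets, and ID1, ID2 and ID3 formed the group of 3 ID genes, which are classical targets of the bone morphogenetic protein (BMP) branch. All 9 were found among 33861 genes, and all 9 were among the 20988 that passed the filter on low counts. RNA was sequenced from HCT116, a human colorectal cancer cell line, in 9 libraries of 3 groups with 3 replicates each. Control cells are labelled NC, activin-treated cells were given activin A at 100 ng/mL over 5 days, and in the third group the same activin treatment was followed by hepatocyte growth factor (HGF) at 20 ng/mL over another 5 days (activin + HGF-treated cells). The culture time of the control cells and of the harvest after activin is not given in the sources used here, and neither is whether activin was kept in the medium with HGF, so added time in culture and HGF cannot be told apart. HGF alone was not sequenced. HCT116 is mismatch repair-deficient and is known to carry frameshift mutations in the receptor genes TGFBR2 and ACVR2A, which limits it as a model of activin and TGF-beta responses.

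Activin binds a pair of type II and type I receptor kinases, and the activated type I receptor phosphorylates SMAD2 and SMAD3. These join SMAD4, enter the nucleus and bind DNA together with other factors. BMP receptors instead phosphorylate SMAD1, SMAD5 and SMAD9, and the ID genes are among the best-known targets of that branch. Most of the SMAD2/3 targets measured here feed back on the pathway. PMEPA1 encodes a membrane protein that holds SMAD2/3 away from the receptor, SMAD7 an inhibitory SMAD that directs receptors to degradation, BAMBI a pseudoreceptor without a kinase, and SKIL (SnoN) and TGIF1 are nuclear corepressors. TGFBI encodes a secreted matrix protein. SMAD7 and BAMBI can also be induced by BMP, and BAMBI by Wnt signaling, so neither is a pure readout of SMAD2/3. ID proteins carry a helix-loop-helix domain but no DNA-binding region, and they hold E proteins such as TCF3 away from DNA. In the intestine they are associated with undifferentiated, dividing cells.

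The genes lie on 7 chromosomes. In the deposited coordinates, PMEPA1 (ENSG00000124225) spans 57648392 to 57711536 on the minus strand of chromosome 20, SMAD7 (ENSG00000101665) 48919853 to 48952052 on the minus strand of chromosome 18, and SKIL (ENSG00000136603) 170357678 to 170396835 on the plus strand of chromosome 3. TGIF1 (ENSG00000177426) spans 3411608 to 3459978 on the plus strand of chromosome 18, TGFBI (ENSG00000120708) 136028988 to 136063818 on the plus strand of chromosome 5, and BAMBI (ENSG00000095739) 28677510 to 28682932 on the plus strand of chromosome 10. ID1 (ENSG00000125968) spans 31605283 to 31606515 on the plus strand of chromosome 20, ID2 (ENSG00000115738) 8678845 to 8684453 on the plus strand of chromosome 2, and ID3 (ENSG00000117318) 23557926 to 23559501 on the minus strand of chromosome 1. Of the 9 spans, 6 were identical to GRCh38 in GENCODE release 29. All are annotated as protein-coding. The antisense gene NKILA overlaps PMEPA1 and ID2-AS1 overlaps ID2, and the strand setting of the counting is not given in the sources used here. NKILA had at most 31 counts and ID2-AS1 at most 207 in any library, and neither passed the test in any comparison. The pseudogene BOD1P1 overlaps TGIF1 on the same strand.

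The promoters of 4 members are shown so that SMAD2/3 targets that rose with activin can be read beside ID1, which did not pass the test there. Windows were the 250 bases before the RefSeq transcript start nearest to the deposited gene start (RefSeq, GRCh38.p14), and the bases printed are those that no GENCODE release 29 exon on the same strand covers, 5′ to 3′ on the strand of the gene. In 3 of the 9 windows, those of SMAD7, TGIF1 and ID3, all bases lie in an annotated exon, and they are not printed. Capitals mark the SMAD box CAGAC or its reverse complement GTCTG, and the GC-rich SMAD element GGCGCC, which is its own reverse complement. The stretches are chr20:57711537-57711722 (minus strand) for PMEPA1, chr10:28677271-28677341 (plus strand) for BAMBI, chr3:170357465-170357677 (plus strand) for SKIL and chr20:31605039-31605282 (plus strand) for ID1.
PMEPA1: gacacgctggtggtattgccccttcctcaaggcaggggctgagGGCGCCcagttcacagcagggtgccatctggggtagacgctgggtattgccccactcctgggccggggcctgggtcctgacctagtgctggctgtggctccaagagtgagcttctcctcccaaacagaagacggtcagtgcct
BAMBI: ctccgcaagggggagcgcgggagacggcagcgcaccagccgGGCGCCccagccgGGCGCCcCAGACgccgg
SKIL: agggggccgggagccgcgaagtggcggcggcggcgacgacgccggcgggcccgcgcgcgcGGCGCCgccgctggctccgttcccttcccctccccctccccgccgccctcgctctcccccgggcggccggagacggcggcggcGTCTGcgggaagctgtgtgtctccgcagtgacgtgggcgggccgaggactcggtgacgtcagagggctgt
ID1: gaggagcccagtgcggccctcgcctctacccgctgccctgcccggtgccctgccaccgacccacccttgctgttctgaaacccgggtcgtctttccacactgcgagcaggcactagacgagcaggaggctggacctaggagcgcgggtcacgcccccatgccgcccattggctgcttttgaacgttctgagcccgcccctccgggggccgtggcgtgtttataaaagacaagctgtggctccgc
The stretch of BAMBI holds 2 GC-rich elements and 1 SMAD box, that of SKIL 1 of each, that of PMEPA1 1 GC-rich element, and that of ID1 neither motif. Over the whole windows, CAGAC or GTCTG was found in 5 of the 9 (4 of 6 SMAD2/3 targets and 1 of 3 ID genes), and it occurs in 38% of the 34943 promoter windows of the same length. GGCGCC was found in 4 of the 6 SMAD2/3 targets and in 0 of the 3 ID genes, against 16.4% of all windows. This motif holds only G and C. The GC content was 63.2% to 81.2% in these 4 windows and 62.0% to 69.2% in those of the ID genes. The share over all windows was not matched for GC content. Neither motif was assigned to the SMAD2/3 or the BMP branch here, so these counts do not tell the branches apart. The palindrome GTCTAGAC was in 0 of the 9 and in 0.183% of all windows. The start used lay 1087 bases from the deposited gene start for SMAD7, 401 for TGIF1 and 3211 for ID2. PMEPA1, SMAD7 and TGIF1 have further RefSeq starts, whose windows are not counted here. Motifs outside the 250 bases were not searched for, so a count of 0 holds for these windows only. A match of this length is a description of the letters and no evidence of binding.

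Read counts per library ranged from 57453977 to 77016167, and 3 counts corresponded to at most 0.0551 CPM (counts scaled to library size) in any library. The lowest correlation of log2 CPM between replicates was 0.940 and the highest between libraries of different groups was 0.937. Mitochondrial transcripts took 18.0% to 20.1% of the counts in control libraries and 15.1% to 17.2% in treated ones. Ribosomal protein genes took 8.29% to 9.76% in the activin + HGF libraries and 5.38% to 6.84% in the other groups, and the part of either share in the results was not tested. All 6 epithelial markers were detected in every library, from 13.2 FPKM (fragments scaled to gene length and library size) for CDH1 to 274 for KRT19 as means of control cells. Some moved with the treatments. CLDN7 (log2 fold change 2.11, adjusted p = 0.000694, edgeR) and CDH1 (0.91, adjusted p = 0.0316, edgeR) rose with activin, EPCAM rose after HGF (1.02, adjusted p = 0.0067, edgeR), and EPCAM, KRT19 and CLDN7 were higher with activin + HGF than in control cells. Among 6 markers of other cell types, PTPRC, CD3E and PECAM1 had at most 27 counts in any library, while COL1A1 had a mean of 2.35 FPKM in control cells, 5.12 with activin and 3.04 with activin + HGF. Of the 4 of these markers that were tested, COL1A1 rose and COL3A1, with at most 212 counts, fell with activin. COL3A1 rose again after HGF, and COL1A1 and ALB, the latter with at most 79 counts, were higher and COL3A1 lower with activin + HGF than in control cells. Their part in the results below was not tested. Activin + HGF replicate 1 had the lowest scaling factor of TMM (trimmed mean of M values), 0.783, against 0.899 to 1.17 in the other 8 libraries, and for several members it lay apart from replicates 2 and 3, as given with each gene. Levels are given as deposited FPKM, which allow genes to be compared per length. Changes were tested on the counts by edgeR's quasi-likelihood test across all 20988 genes, and a gene passed at a Benjamini-Hochberg adjusted p under 0.05. The errors of log2 fold changes are approximate standard errors (SE).

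In control cells the ID genes stood far above the SMAD2/3 targets. ID1 had 215 ± 12.5 FPKM (SD, n = 3), ID3 83.5 ± 5.12 (SD, n = 3) and ID2 53.9 ± 3.24 (SD, n = 3). TGIF1 followed with 7.35 ± 0.346 FPKM (SD, n = 3) and BAMBI with 3.79 ± 0.384 (SD, n = 3). SMAD7 at 1.03 ± 0.07 FPKM and SKIL at 0.907 ± 0.190 (both SD, n = 3) overlapped each other, PMEPA1 had 0.163 ± 0.0252 (SD, n = 3), and TGFBI was close to 0. With activin the order of the ID genes stayed the same, but ID3 (26.4 to 42.3 FPKM) and ID2 (28.01 to 31.23 FPKM) then overlapped. TGIF1 and BAMBI overlapped with activin as well, as did SKIL and SMAD7. After activin + HGF, PMEPA1 had moved from the eighth to the sixth place, at 4.14 ± 1.60 FPKM (SD, n = 3), with its lowest library above the highest of SMAD7.

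**Figure D1:**
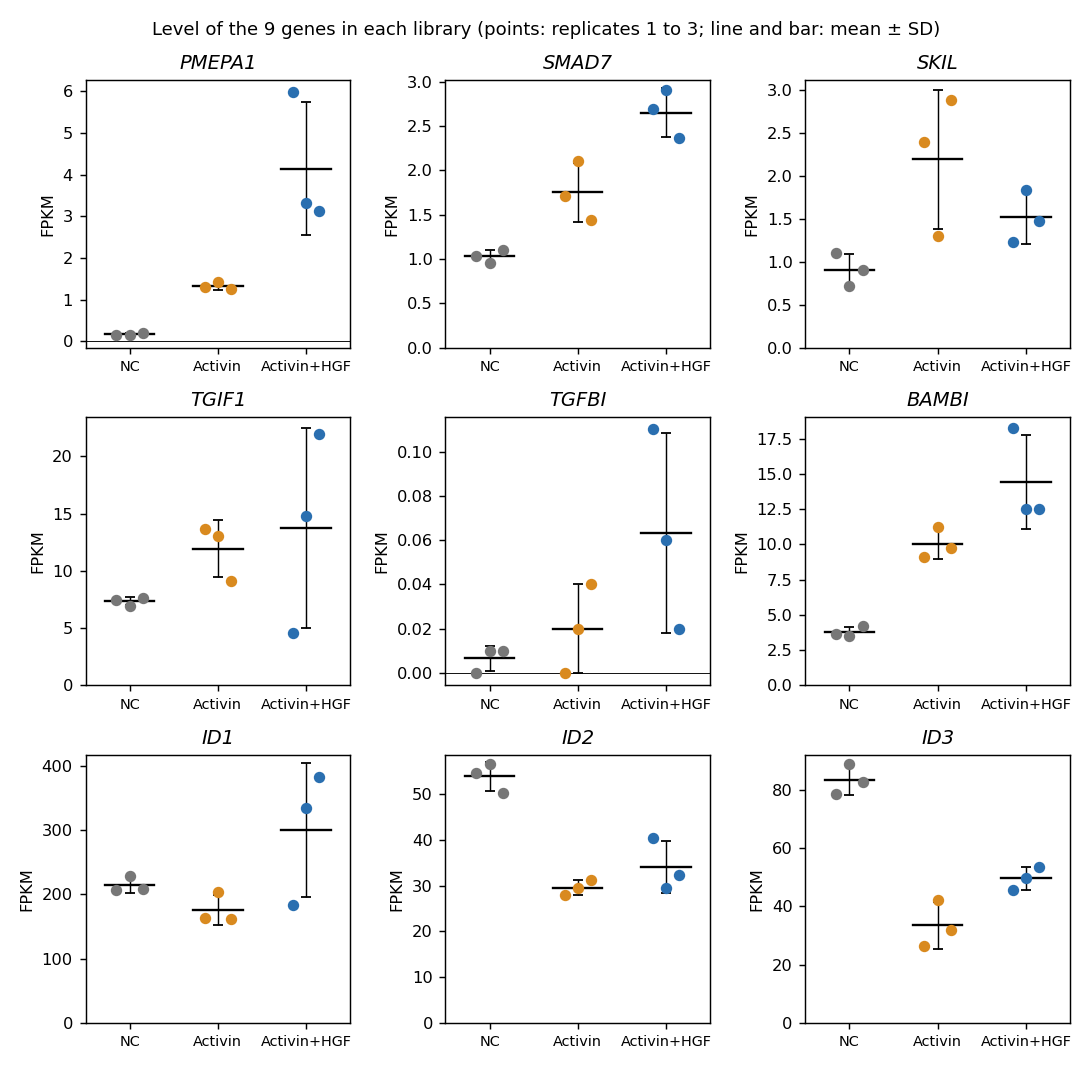
FPKM of each of the 9 genes (vertical axis, from 0, with its own range per gene) in the 3 libraries of each group (points in the order of replicates 1 to 3), with the mean and SD in black. PMEPA1, SMAD7 and BAMBI stepped up from group to group without overlap, and ID2 and ID3 were lower in all activin libraries than in all control libraries. Activin + HGF replicate 1 was the lowest library of its group for SKIL, TGIF1, ID1 and ID3. It was the highest for PMEPA1, TGFBI, BAMBI and ID2.

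To see how activin moved the genes, activin-treated cells were compared with control cells. PMEPA1, BAMBI and SKIL rose, ID2 and ID3 fell, and SMAD7, TGIF1, TGFBI and ID1 did not pass the test. Of the 6 SMAD2/3 targets, 3 passed as higher and 0 as lower, with a median log2 fold change of 1.26. Of the 3 ID genes, 0 passed as higher and 2 as lower, with a median of -0.94. Among all tested genes, 9.58% passed as higher and 8.41% as lower, 18% in either direction, and the median log2 fold change was 0.02. In bulk RNA, a change in the number of cells that express a gene and a change in RNA per cell cannot be told apart. With an added absolute log2 fold change of at least 1, 3 SMAD2/3 targets passed as higher and 1 ID gene as lower (6.78%, 4.62% and 11.4% of all genes as higher, lower and either). In CPM, 7 of the 9 members had groups that did not overlap, as had 42.2% of all tested genes.

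PMEPA1 had the largest change of the members. Its FPKM was 0.16, 0.14 and 0.19 in the control libraries (replicates 1 to 3) and 1.3, 1.43 and 1.26 in the activin libraries. The groups were far apart and both were tight. The log2 fold change was 2.93 (SE 0.339, adjusted p = 0.000388, edgeR), a fold of 7.65, and the fold's size on the log2 scale was at or above that of 96.9% of tested genes. BAMBI had 3.65, 3.49 and 4.22 FPKM in control libraries against 9.12, 11.26 and 9.75 with activin, again without overlap (log2 fold change 1.34, SE 0.254, adjusted p = 0.00548, edgeR). The corepressor SKIL had 1.10, 0.72 and 0.90 FPKM in control libraries and 2.39, 1.3 and 2.89 with activin. All activin libraries of SKIL were above all control libraries, but replicate 2 was much lower than the other two. Its log2 fold change was 1.17 (SE 0.264, adjusted p = 0.0122, edgeR), and the call was lost without NC replicate 2 (adjusted p = 0.0544, edgeR) or NC replicate 3 (adjusted p = 0.0539, edgeR).

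SMAD7, the feedback SMAD, had 1.03, 0.96 and 1.10 FPKM in control libraries and 1.71, 2.10 and 1.44 with activin. The groups did not overlap, yet the log2 fold change of 0.71 (95% interval 0.19 to 1.23) missed the threshold after adjustment (adjusted p = 0.0623, edgeR). It passed in 5 of 20 alternative fits, one of them without activin replicate 3 (log2 fold change 0.90, adjusted p = 0.0341, edgeR). TGIF1 had 7.47, 6.96 and 7.62 FPKM in control libraries and 13.69, 13.01 and 9.11 with activin. Its interval was wide, -0.26 to 1.52 around a log2 fold change of 0.63 (adjusted p = 0.328, edgeR). TGFBI was barely detected, with 0, 7 and 4 counts in control libraries and 0, 10 and 28 with activin. A change of TGFBI could not be measured at such counts (95% interval of the log2 fold change -1.37 to 4.86).

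Among the ID genes, ID3 changed most with activin. Its FPKM was 78.82, 88.95 and 82.63 in control libraries and 26.43, 42.34 and 31.96 with activin. Every activin library lay below every control library, and the log2 fold change was -1.37 (SE 0.225, adjusted p = 0.00253, edgeR). ID2 had 54.72, 56.69 and 50.36 FPKM in control libraries against 28.01, 29.45 and 31.23 with activin, which gave a log2 fold change of -0.94 (SE 0.201, adjusted p = 0.00964, edgeR). ID1 is the most abundant of the 3 and had 207.04, 228.97 and 207.63 FPKM in control libraries and 163.55, 203.15 and 161.26 with activin. In FPKM all activin libraries of ID1 were lower, but in CPM the groups overlapped, and the log2 fold change was -0.35 (95% interval -0.87 to 0.17, adjusted p = 0.354, edgeR). The calls of PMEPA1, BAMBI, ID2 and ID3 in this comparison were kept in all 20 alternative fits.

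**Figure D2:**
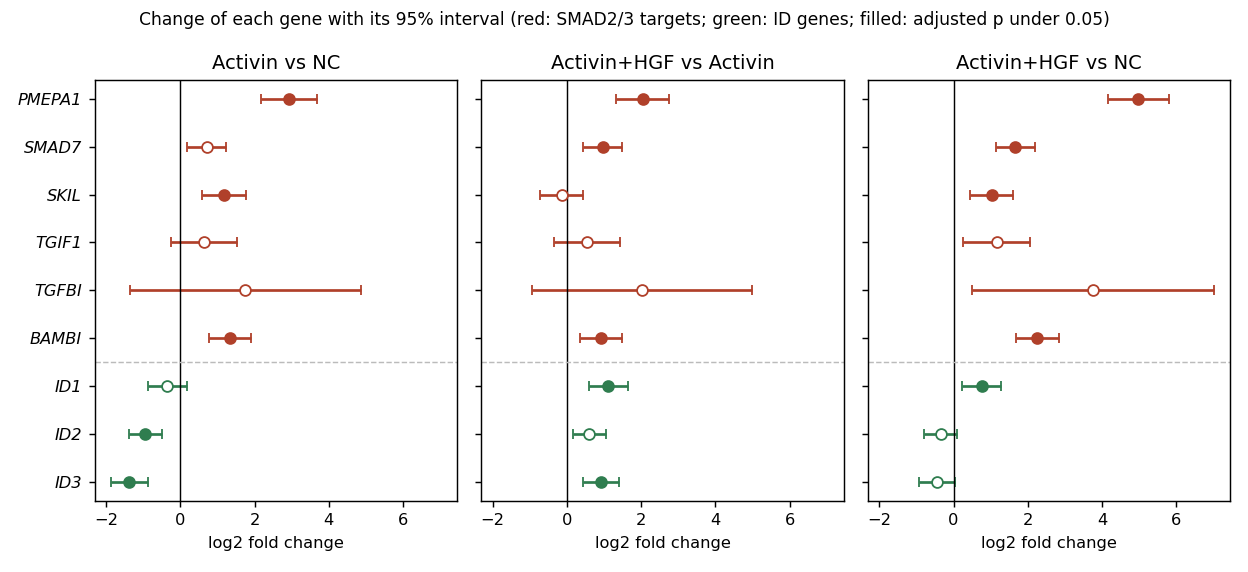
Log2 fold change of each gene (horizontal axis, edgeR) with its 95% interval in the 3 comparisons, with SMAD2/3 targets in red above the dashed line and ID genes in green below it, filled where the adjusted p was under 0.05. With activin against control (NC) the estimates of all 6 red genes lie above 0 and those of all 3 green genes below 0, and with activin + HGF against activin the estimates of all but SKIL lie above 0.

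The next comparison was activin + HGF-treated against activin-treated cells. PMEPA1, SMAD7 and BAMBI rose further, and now ID1 and ID3 rose with them. Thus 3 of 6 SMAD2/3 targets and 2 of 3 ID genes passed as higher and 0 of the 9 as lower, against 7.41% higher and 5.45% lower among all tested genes (12.9% in either direction). With the added fold change 1 of the SMAD2/3 targets (PMEPA1) and 1 ID gene (ID1) passed as higher, against 3.87% higher, 4.21% lower and 8.09% in either direction over all genes. Groups did not overlap in CPM for 6 of the 9 members and for 32.7% of all tested genes. The median log2 fold changes were 0.94 and 0.92 for the groups in that order, and -0.04 over all tested genes. These changes are relative to TMM scaling. With library totals in place of TMM the median of all tested genes was -0.38, and 22.3% instead of 57.6% of the genes that passed were higher (46.7% with upper quartile scaling). Under each of these scalings no member changed direction, but with library totals SMAD7 (adjusted p = 0.069, edgeR), BAMBI (adjusted p = 0.0946, edgeR) and ID3 (adjusted p = 0.0541, edgeR) no longer passed, which left PMEPA1 and ID1.

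PMEPA1 had 5.99, 3.32 and 3.12 FPKM in the activin + HGF libraries, all above its 1.26 to 1.43 FPKM with activin. Replicate 1 was the high library. The log2 fold change was 2.04 (SE 0.32, adjusted p = 0.00616, edgeR), and without activin + HGF replicate 1 it was 1.57 (adjusted p = 0.00838, edgeR). PMEPA1 was the single member whose call in this comparison was kept in all 20 alternative fits. SMAD7 rose to 2.69, 2.90 and 2.36 FPKM, above all activin libraries (log2 fold change 0.96, SE 0.235, adjusted p = 0.0271, edgeR). BAMBI rose to 18.29, 12.54 and 12.49 FPKM, where replicate 1 was again the highest (log2 fold change 0.91, SE 0.251, adjusted p = 0.0395, edgeR). Without that replicate BAMBI had a log2 fold change of 0.61 and an adjusted p of 0.0978 (edgeR). The calls of SMAD7 and BAMBI were lost in 11 and 12 of 20 alternative fits. For SMAD7 this included leaving out any NC replicate, activin replicate 1 or 3, or activin + HGF replicate 1 or 2 (log2 fold change 0.73 to 0.96, adjusted p 0.0518 to 0.115, edgeR). For BAMBI it included leaving out any NC replicate, activin replicate 1 or 3, or activin + HGF replicate 1 (log2 fold change 0.61 to 0.91, adjusted p 0.0649 to 0.161, edgeR).

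SKIL had 1.23, 1.84 and 1.48 FPKM in the activin + HGF libraries, which overlapped the activin libraries, and its log2 fold change was -0.14 (95% interval -0.72 to 0.43, adjusted p = 0.759, edgeR). TGIF1 had 4.55, 14.78 and 21.96 FPKM. Its replicate 1 was below every control library, while replicates 2 and 3 were above every activin library. In this comparison the log2 fold change of TGIF1 was 0.53 (95% interval -0.36 to 1.42, adjusted p = 0.412, edgeR) and 0.92 without replicate 1 (adjusted p = 0.0511, edgeR). TGFBI had 74, 42 and 13 counts, or at most 0.11 FPKM, and was not called (adjusted p = 0.346, edgeR).

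ID1 had 182.84, 334.90 and 382.33 FPKM after activin + HGF. Replicate 1 lay within the range of the activin libraries in FPKM and above it in CPM (344 against 200 to 293). The log2 fold change of ID1 was 1.11 (SE 0.237, adjusted p = 0.0166, edgeR), and 1.32 without replicate 1 (adjusted p = 0.0109, edgeR). ID3 had 45.59, 49.71 and 53.60 FPKM, all above the activin libraries (log2 fold change 0.92, SE 0.223, adjusted p = 0.0264, edgeR). ID2 had 40.50, 29.60 and 32.29 FPKM, which overlapped the activin libraries in FPKM although not in CPM, and its log2 fold change of 0.60 did not pass (95% interval 0.16 to 1.04, adjusted p = 0.0735, edgeR). In CPM replicate 1 of ID2 stood apart, at 137 against 84.0 and 94.1 in replicates 2 and 3. With single libraries left out, the log2 fold change of ID2 ranged from 0.37 to 0.74. The call of ID1 was lost in 6 of 20 alternative fits, among them those without activin replicate 1 (adjusted p = 0.0822, edgeR), activin replicate 3 (adjusted p = 0.0744, edgeR) or activin + HGF replicate 3 (adjusted p = 0.0504, edgeR). The call of ID3 was lost in 10, with any library but activin replicate 2 left out (log2 fold change 0.67 to 0.96, adjusted p 0.0501 to 0.104, edgeR).

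Over the whole sequence of treatments, from control to activin + HGF-treated cells, PMEPA1, BAMBI, SMAD7, SKIL and ID1 rose, while ID2 and ID3 did not pass the test and had estimates below 0. Of the 6 SMAD2/3 targets 4 passed as higher, and of the 3 ID genes 1 did. No member passed as lower. In all tested genes 16.4% passed as higher and 15% as lower (31.4% in either direction), so that 1 of 3 ID genes is close to the share called in either direction. With the added fold change 4 SMAD2/3 targets and 0 ID genes passed, against 11.3% higher, 10.2% lower and 21.5% in either direction over all genes. Groups did not overlap in CPM for 7 of the 9 members and for 53.8% of all tested genes. The group medians were 1.96 for SMAD2/3 targets and -0.34 for ID genes. The median over all tested genes was -0.03.

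PMEPA1 was 31.5-fold higher than in control cells (log2 fold change 4.98, SE 0.369, adjusted p = 2.34e-05, edgeR) and held the 52nd place by p of the 20988 genes. BAMBI had a log2 fold change of 2.25 (SE 0.261, adjusted p = 0.00022, edgeR) and SMAD7 of 1.66 (SE 0.239, adjusted p = 0.000715, edgeR). These 3 calls were kept in all 20 alternative fits. SKIL had 1.03 (SE 0.263, adjusted p = 0.0139, edgeR), a call lost in 6 of 20, including without NC replicate 2 (adjusted p = 0.0749, edgeR), NC replicate 3 (adjusted p = 0.0525, edgeR) or activin + HGF replicate 2 (adjusted p = 0.0513, edgeR). For TGIF1 the log2 fold change was 1.16 and the adjusted p 0.0515 (edgeR), and without activin + HGF replicate 1 these were 1.55 and 0.00231. TGFBI, with 13 to 74 counts against 0 to 7, had a log2 fold change of 3.76 whose 95% interval reached from 0.50 to 7.01 (adjusted p = 0.0759, edgeR, and 0.0414 without activin replicate 1). ID1 was higher by 0.76 (SE 0.236, adjusted p = 0.0332, edgeR). This call was lost in 8 of 20 alternative fits, namely library totals, both fits on FPKM, where replicate 1 lies below all control libraries, and those without any 1 of the NC replicates or activin + HGF replicate 2 or 3 (log2 fold change 0.56 to 0.79, adjusted p 0.0673 to 0.124, edgeR). ID2 had -0.34 (95% interval -0.78 to 0.10, adjusted p = 0.221, edgeR) and ID3 -0.45 (95% interval -0.94 to 0.04, adjusted p = 0.145, edgeR). With library totals in place of TMM both passed as lower, with -0.63 for ID2 (adjusted p = 0.0137, edgeR) and -0.72 for ID3 (adjusted p = 0.0143, edgeR). Both also passed as lower in the limma fits on FPKM, and ID3 with only the 2 groups compared (-0.45, adjusted p = 0.0236, edgeR). ID2 also passed without activin + HGF replicate 1 (-0.58, adjusted p = 0.0275, edgeR), and ID3 without activin replicate 2 (-0.45, adjusted p = 0.0214, edgeR). Every activin + HGF library of ID2 and ID3 was below every control library in FPKM. In CPM this held for ID3, while replicate 1 of ID2 (137 CPM) lay within the control range (124 to 143 CPM).

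Ratios within a library do not depend on how libraries are scaled, but sums compared between libraries do. The FPKM of ID1, ID2 and ID3 together was 341 to 375 in control libraries, 218 to 275 with activin, and 269, 414 and 468 in replicates 1 to 3 of activin + HGF. In CPM, which were scaled by TMM, replicate 1 of activin + HGF lay above every activin library for each of the ID genes. ID1 made up 60.8% to 61.1% of the summed FPKM in control libraries, 71.8% to 75.0% with activin and 68.0%, 80.9% and 81.7% in replicates 1 to 3 of activin + HGF. Its share was thus higher in all 6 treated libraries than in any control library. The share of ID3 was 23.1% to 24.3% in control libraries, 12.1% to 15.4% with activin and 11.4% to 17.0% with activin + HGF. ID2 held 14.8% to 16.1%, 10.7% to 13.9% and 6.90% to 15.1% in the same order, with activin + HGF replicate 1 at 15.1%. These shares are a description with no test.

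**Figure D3:**
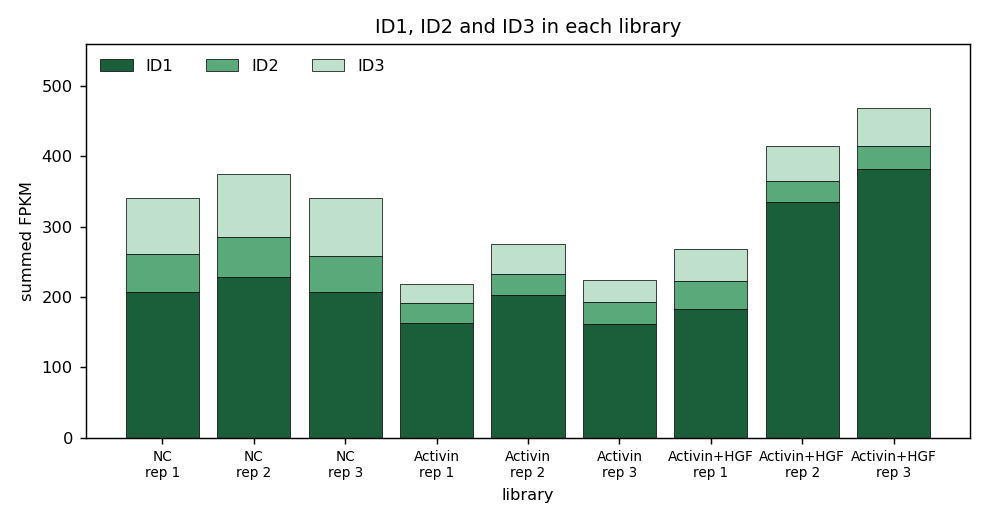
Summed FPKM of ID1, ID2 and ID3 (vertical axis, from 0) in each of the 9 libraries, stacked by gene. The activin libraries have the lower sums (218 to 275) next to control (341 to 375), and ID1, the dark part, fills a larger share of all 6 treated libraries than of any control library. The sums depend on how FPKM were scaled between libraries, while the shares do not.

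SMAD2/3 targets were compared with ID genes in the same way. The FPKM of BAMBI was 3.92% to 5.11% of that of ID3 in control libraries, 26.6% to 34.5% with activin and 23.3% to 40.1% with activin + HGF. For PMEPA1 against ID3 the values were 0.157% to 0.230%, 3.38% to 4.92% and 5.82% to 13.1%. SMAD7 was 1.08% to 1.33% of ID3 in control libraries, 4.51% to 6.47% with activin and 4.4% to 5.90% with activin + HGF. Relative to ID3, BAMBI and SMAD7 overlapped between both treated groups and PMEPA1 did not. With ID2 as the denominator, BAMBI was at 31.2% to 38.2% with activin and 38.7% to 45.2% with activin + HGF, which did not overlap, and SMAD7 at 4.61% to 7.13% and 6.64% to 9.8%, which did. With ID1, which rose after HGF, BAMBI was at 5.54% to 6.05% with activin and 3.27% to 10.0% with activin + HGF. BAMBI thus overlapped between both treated groups relative to ID1 and ID3, and was separate relative to ID2 only. PMEPA1 was higher in every activin + HGF library than in every activin library relative to each of the 3 ID genes. Relative to ID1 it was at 0.704% to 0.795% with activin and 0.816% to 3.28% with activin + HGF.

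Other genes of the pathway were read from lists by role, taken whole. The shares of all tested genes that passed, to be set beside these counts, were 9.58% higher and 8.41% lower with activin. They were 7.41% and 5.45% after HGF, and 16.4% and 15% over the whole sequence. Of 22 further SMAD2/3 target genes, 20 were tested and 12 passed as higher with activin and 0 as lower, with a median log2 fold change of 1.58. SNAI2, a repressor of epithelial genes, rose by 3.77, CCN2, a matricellular protein, by 2.76 and JUNB, an AP-1 subunit, by 2.65 on the log2 scale (adjusted p = 0.000175, 0.00514 and 0.000288, edgeR). After HGF, 4 of the 20 rose and 1 fell against activin. GADD45B rose by 1.89, LTBP3 by 1.25 and JUNB by 1.06, while the latent TGF-beta binding protein LTBP2 fell by 1.33 on the log2 scale. In the activin + HGF libraries GADD45B had 173, 43.5 and 44.3 CPM against 19.7 to 27.4 with activin, so replicate 1 stood apart for it as well, and its value without that replicate was not fitted. From control to activin + HGF, 13 of 20 passed as higher and 0 as lower, with a median of 1.63, and JUNB was at 3.71. The genes NODAL and LEFTY1, developmental targets of SMAD2/3, did not pass in any comparison, and LEFTY2 was too low to test.

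Of 8 further BMP-SMAD target genes, 7 were tested, and with activin 1 passed as higher and 1 as lower (median -0.10). Among all tested genes 9.58% and 8.41% did. ATOH8 fell with activin from 5.99 to 0.397 CPM (log2 fold change -3.91, SE 0.437, adjusted p = 0.000329, edgeR) and HEY1 rose from 0.634 to 2.5 CPM (log2 fold change 1.97, SE 0.444, adjusted p = 0.0122, edgeR). Both were named after their values were seen, since they lie below 1 FPKM. After HGF 3 of the 7 rose against activin and 0 fell, with a median of 0.76, and these were SMAD6, the BMP-induced inhibitory SMAD (log2 fold change 1.06, adjusted p = 0.0311, edgeR), MSX1 (0.94, adjusted p = 0.0154, edgeR) and MSX2 (0.76, adjusted p = 0.0204, edgeR). SMAD6 was also named after its values were seen. Its CPM was 8.81 in control cells, 4.96 with activin and 10.3 after HGF, and the change with activin did not pass (log2 fold change -0.83, adjusted p = 0.0575, edgeR). The activin + HGF libraries of SMAD6 had 6.83, 12.9 and 11.2 CPM in replicates 1 to 3. Replicate 1 was above the activin libraries (3.99 to 5.84 CPM) but below the control libraries (8.23 to 9.37 CPM). ATOH8 was still low after activin + HGF, at 0.475 CPM, and its change against activin was 0.26 (SE 0.409, adjusted p = 0.713, edgeR). From control to activin + HGF 3 of the 7 passed as higher, namely HEY1, MSX1 and MSX2, and 1 as lower, ATOH8. The shares over all tested genes were 16.4% and 15%.

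Of 12 further corepressors and regulators of SMAD ubiquitylation, 1 passed with activin, SMURF1, a ubiquitin ligase, with a log2 fold change of 0.74 (adjusted p = 0.00643, edgeR). This 1 of 12 does not exceed the 18% of all tested genes called with activin. After HGF against activin 0 passed in edgeR's test, and 3 had an unadjusted p under 0.05. From control to activin + HGF 2 were higher (PPM1A and SMURF1) and 2 lower (TRIM33 and SMURF2), 4 of 12 in all, which is close to the 31.4% of all tested genes called in that comparison. Among 18 tested receptors, SMADs and BMP ligands, 3 passed as higher and 2 as lower with activin, against 9.58% and 8.41% of all tested genes. SMAD3 rose by 0.89, BMP2 by 2.21 and the receptor gene ACVR1 by 0.83 on the log2 scale (adjusted p = 0.0024, 0.00408 and 0.0316, edgeR). The BMP-branch SMAD1 fell by 0.85 on the same scale. BMP2, at 0.31 CPM in control cells and 1.45 with activin, was named after its values were seen, since it lies below 1 FPKM. The receptor gene TGFBR2, mutated in this line, had 51.0 CPM in control cells and 29.3 with activin (log2 fold change -0.80, adjusted p = 0.0395, edgeR), and ACVR2A, which did not pass, had 11.9 and 10.0 CPM. After HGF, BMP6 and BMP7 were the ligands that passed, with log2 fold changes of 0.90 and 0.86. From control to activin + HGF 4 of the 18 passed as higher, namely BMP2 at 2.65, BMP6 at 1.45, SMAD3 at 0.94 and ACVR1 at 0.78. SMAD1 fell by 1.48 on the log2 scale. These 2 calls of 18 after HGF and 5 of 18 over the whole sequence do not exceed the shares of all tested genes (12.9% and 31.4%). Of 8 listed partners and opponents of ID proteins in the table, 3 were tested. HES1, a Notch target, rose at both steps, by 0.95 with activin and by 1.42 after HGF, and the E protein TCF3 passed from control to activin + HGF (0.80). In the KEGG term TGF-beta signaling pathway of the deposited table, which holds 86 genes with 6 of the members among them, 14 of 76 tested genes passed as higher and 9 as lower with activin, 15 and 3 after HGF, and 24 and 10 over the whole sequence. Over all tested genes the shares higher and lower were 9.58% and 8.41%, 7.41% and 5.45%, and 16.4% and 15% in the same order.

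**Figure D4:**
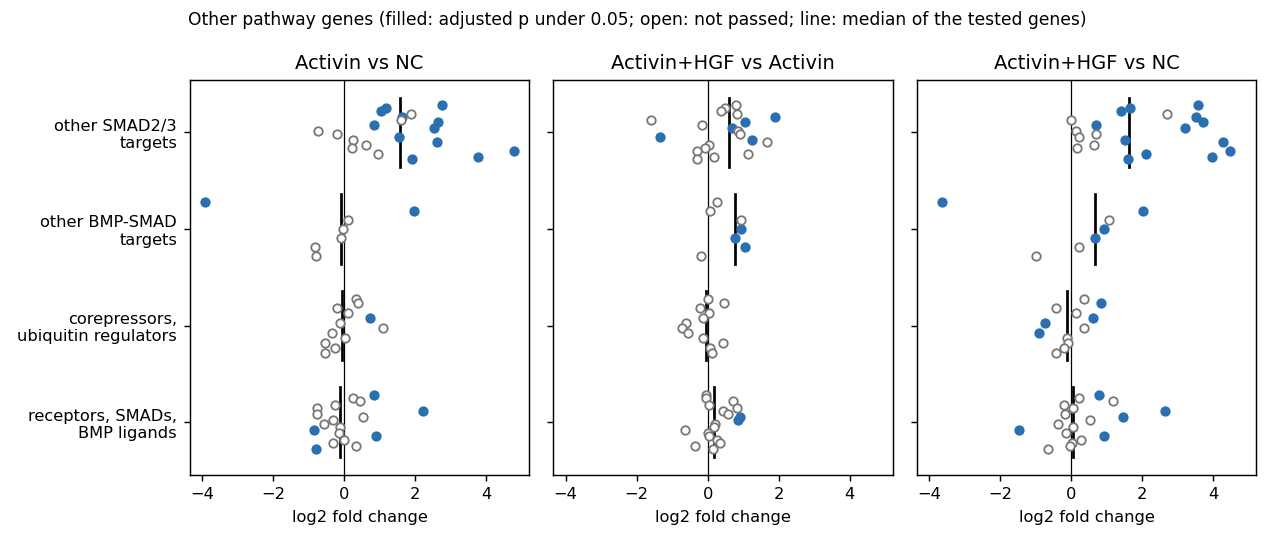
Log2 fold change (horizontal axis, edgeR) of each tested gene of 4 pathway lists that hold no member, filled where the adjusted p was under 0.05, with the median of each list as a vertical line. The median of the other SMAD2/3 targets is 1.58 with activin against control (NC) and the BMP-SMAD list moves from a median of -0.10 in that panel to 0.76 after HGF against activin.

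The genes whose log2 CPM followed a member most closely over the 9 libraries were also listed, among 14756 genes with a mean of at least 1 CPM. For PMEPA1 these were the noncoding ZFAS1 (Pearson r = 0.997) and KRT15 (0.996), for SMAD7 TNFRSF21 (0.997) and COL6A2 (0.995), and for BAMBI EIF1 (0.996) and BBC3 (0.996). SKIL was followed by MBOAT1 (0.978) and TMED5 (0.974), and TGIF1 less closely by SIRT4 (0.959) and FZD7 (0.955). For ID1 the list gave FUCA1 (0.983) and ANKH (0.981), for ID2 HSP90AB3P (0.991) and HSP90AB1 (0.984), and for ID3 RPL7AP30 (0.990) and TPM2 (0.989). HSP90AB3P and RPL7AP30 are pseudogenes that can share reads with their parent genes. TGFBI, with its low counts, was nearest to SUSD4 (0.946) and HSD17B12 (0.936). All of these genes share the same 9 libraries in 3 groups, and the highest r of so many candidates is high by selection, so no p is given.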

How the data were processed

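For 9 libraries the authors deposited raw read counts of each gene and FPKM, already scaled by them for depth and gene length. The submitters' processing notes name cutadapt 1.9, HISAT2 2.0.4 and StringTie 1.3.4d without roles, and the build is not given in the sources used here. Groups came from the sample titles. Nothing says that replicates were separate cultures, so p-values measure the spread between these libraries, which may be technical. Depth was 57453977 to 77016167 counts per library. Of counts from 1 to 40, 35.0% were multiples of 4, so a count need not be 1 fragment.

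Counts were tested with edgeR 4.0.16 in R 4.3.3 (filterByExpr, TMM scaling, glmQLFit and glmQLFTest) in a single model of the 3 groups, with Benjamini-Hochberg adjustment over all 20988 tested genes. CPM refer to TMM-scaled libraries. SE and 95% intervals were derived from log2 fold changes and F values. DESeq2 1.42.0 and limma 3.58.1 served as alternatives, and the scripts were first tested on simulated data. The members and the gene lists were chosen with earlier results of these data known. Beside the members, the text names per list and comparison up to 4 genes with the largest change among those with an adjusted p under 0.05 and a mean of at least 1 FPKM in the higher group. Some genes of the lists are counted but not reported here by name. Markers, receptors of the line, genes that did not pass and those said to be so were named after their values were seen. As genes most like a member, the 2 with the highest Pearson r were taken. No replicates were duplicates (chi-square over degrees of freedom 60.6 to 276 between them). Deviations from group means correlated at -0.0606 to 0.0882 between libraries sharing a replicate number (9 pairs). Between libraries with different numbers the range was -0.0825 to 0.108 (18 pairs). The numbers thus gave no sign of pairing, but with 3 libraries per group such a check cannot exclude it. With 3 against 3, an exact permutation test cannot go below p = 0.1 (two-sided), and none is given.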

Additional observations from a re-analysis of the deposited data

How the results depend on the processing

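The calls on all 9 members were recomputed under 20 alternatives with a fit of their own. Over members and comparisons, 453 of the results kept direction and side of the threshold, 55 lost and 23 gained the threshold, and 2 reversed. The reversals were TGIF1 for activin + HGF against activin in limma on log2(FPKM + 1) (-0.0164) and on log2(FPKM + 0.1) (-0.0418), and the cause was not tested. TGFBI had no adjusted p in 3 fits for activin against control and in 2 for each of the other comparisons. For activin + HGF against activin, 1 of 6 SMAD2/3 targets passed (main 3) with library totals, with only the 2 groups compared, in both limma fits, with an adjusted p under 0.01 and with an added absolute log2 fold change of at least 1. Of the ID genes (main 2), 1 passed with library totals, both limma fits and the added fold change, and 0 with only the 2 groups compared or an adjusted p under 0.01. For activin + HGF against control the main call was 1 ID gene higher (ID1). With library totals and in both limma fits 2 passed, both lower (ID2 and ID3), and the call of ID1 was lost. With only the 2 groups compared 2 passed, 1 higher (ID1) and 1 lower (ID3), and 0 with the added fold change or an adjusted p under 0.01. For activin against control 1 ID gene passed with the added fold change (main 2). Over all genes, 3776, 2698 and 6587 passed for activin against control, activin + HGF against activin and activin + HGF against control. The added fold change left 2394 and 1697 in the first and second of these, an adjusted p under 0.01 left 1688, 488 and 3492, and the second had 714 with only the 2 groups compared and 4510 with DESeq2.

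Leaving out single libraries, between 2021 and 4729 genes passed for activin against control, between 686 and 4533 for activin + HGF against activin and between 4260 and 7798 for activin + HGF against control. The counts moved by over 1.5 times without NC replicate 1 (2065, 1627 and 4373), NC replicate 2 (2255 and 1663, the first and second comparison) and NC replicate 3 (2021, 1554 and 4260), and, for activin + HGF against activin, without activin replicates 1, 2 and 3 (686, 4533 and 1049) and activin + HGF replicates 1 and 2 (1736 and 1643). SMAD2/3 targets that passed numbered 2 to 4, 1 to 3 and 3 to 5 in these fits, and ID genes 2 to 2, 0 to 2 and 0 to 2. When replicate numbers entered as a replicate block, 3362, 2044 and 6088 genes passed. SMAD2/3 targets that passed with the block numbered 3, 2 and 4 and ID genes 2, 2 and 1, and the member call lost was that of BAMBI after HGF against activin (log2 fold change 0.89, adjusted p = 0.0736, edgeR). The low counts of TGFBI and 3 libraries per group limit the precision.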
